A study of Mus musculus with 6 samples.

Results

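Cells labelled through the Twist2 gene were compared with cells labelled through the Pax7 gene, both sorted from hind limb skeletal muscle of adult C57BL/6 mice and profiled by RNA sequencing. The labelled cells make up 3 of the 6 libraries of the series, and the comparison covers all 4939 genes of a deposited table in CPM (reads of a gene scaled to a fixed library size), with no further choice among them. Both lines carried R26-tdTO, a Rosa26 reporter that makes the red protein tdTomato after Cre recombinase has cut out a stop. In the Tw2-CreERT2/+;R26-tdTO+ line the tamoxifen-dependent Cre was driven from Twist2. In the Pax7-CreERT2/+;R26-tdTO+ line it was driven from Pax7. All mice of both lines received tamoxifen in 3 treatments on alternate days, and muscle was taken 10 days later. The tdTomato-positive cells are called Tw2pos (2 libraries) and Pax7pos (1 library). The tdTomato-negative cells of the same lines, Tw2neg (2 libraries) and Pax7neg (1 library), are given as background. The label is inherited, so it marks cells that had Cre activity during tamoxifen and their progeny, and not only cells that transcribed the driver gene at harvest. Nothing in the labels states that the Tw2pos replicates are different mice. The p-values here therefore rest on the spread between deposited samples, and that spread can be technical. Pax7pos has no replicate.

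Satellite cells are the resident stem cells of skeletal muscle. They lie between the fibre and its basal lamina, carry the transcription factor Pax7, are held quiescent by Notch signals, and form new fibre nuclei through the MyoD family of basic helix-loop-helix factors when muscle is damaged. The tissue between the fibres holds fibroblast-like cells marked by Pdgfra that make collagen and proteoglycan matrix, together with tendon fibroblasts, vessels and resident leukocytes. Twist1 and Twist2 are basic helix-loop-helix factors of mesenchymal cells. Basic helix-loop-helix factors bind a short DNA motif called an E box.

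Tw2pos had effective library sizes of 9710688 and 10262454 reads and Pax7pos had 9572963, so that 1 read was worth about 0.103, 0.0974 and 0.104 CPM. The Tw2pos libraries were close to each other: the median absolute log2 difference was 0.184, and 72 of the 4939 genes (1.46%) lay more than 2-fold apart. In the Tw2neg pair those values were 0.490 and 12.5%. The table keeps genes that reach 10 CPM in a minimum of 3 libraries and that lie 2-fold or more away from Tw2neg in some other group, so a gene expressed in Pax7pos alone cannot be in it. Of the 4939 genes, 1853 (37.5%) were in the table only because Pax7pos differed from Tw2neg, and 839 (17.0%) only because Tw2pos did. A member of a gene list that entered through Pax7pos alone was within 2-fold of Tw2neg in Tw2pos. Counts over list members therefore describe the members measured and not the whole pathway. CPM is not corrected for transcript length, so levels are compared only within a gene. Other features of the libraries moved with the comparison. The 10 most abundant genes of the table took 25.6% and 26.1% of the Tw2pos libraries and 13.7% of Pax7pos. Rn45s, the precursor of ribosomal RNA, was singled out after its values were seen. It had the highest CPM of all genes in Pax7pos, at 27078, beside 6560 and 12227 in Tw2pos, and the unlabelled values were 2487 and 2564 for Tw2neg and 4797 for Pax7neg. Its difference did not pass (log2 difference −1.60, SE 0.67, limma adjusted p = 0.072). The Y-linked gene Ddx3y was at 246 and 233 CPM in Tw2pos against 166 CPM in Pax7pos. It was at 219 and 245 CPM in Tw2neg against 82.0 CPM in Pax7neg. Male RNA was thus present in all 6 libraries, and the level of Ddx3y was lower in both libraries of the Pax7 line. Between the labelled cells, Ddx3y and Kdm5d did not pass, and Eif2s3y and Uty, also Y-linked, passed as higher in Tw2pos. The sex of the animals and the line cannot be told apart.

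The markers of the labelled cells were examined first. Pax7 (GRCm38 chromosome 4, 139737062 to 139833528, minus strand) was at 12.2 and 7.21 CPM in Tw2pos against 303 CPM in Pax7pos, which leaves the level of Tw2pos at 3.20% of that of Pax7pos. Of the 15 satellite cell markers, 13 were measured, and 12 of them were lower in Tw2pos (25.1% of all genes tested were lower, and 33.7% higher). For these 12 the level in Tw2pos was between 1.44% (Myod1) and 28.2% (Sdc4) of that in Pax7pos, with a median of 4.75%. In a wider list of 30 satellite cell genes, 23 were measured, of which 18 were lower in Tw2pos and 4 did not pass. The 1 gene higher in Tw2pos was Cd34, which is also in the fibro-adipogenic list. Among the 13 markers Chodl was the exception. It was at 479 and 475 CPM in Tw2pos against 354 CPM in Pax7pos and did not pass (log2 difference 0.43, SE 0.47, limma adjusted p = 0.45). The 23 markers of fibro-adipogenic progenitors that passed, of 24 measured, were all higher in Tw2pos, and their level in Pax7pos was between 0.361% (Pi16) and 30.7% (Thy1) of that in Tw2pos. Most markers of the 2 cell types thus differed in opposite directions, and each labelled group held a low level of most of the other's markers. In these sorted bulk samples, fewer cells of a type and less RNA per cell cannot be told apart. Twist2, Myf5 and Calcr are not in the CPM table, and their level in Pax7pos was not analysed here. Twist1, a relative of Twist2, was at 61.6 and 68.0 CPM in Tw2pos against 1.57 CPM in Pax7pos (log2 difference 4.68, SE 0.42, limma adjusted p = 0.00014).

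**Figure D1:**
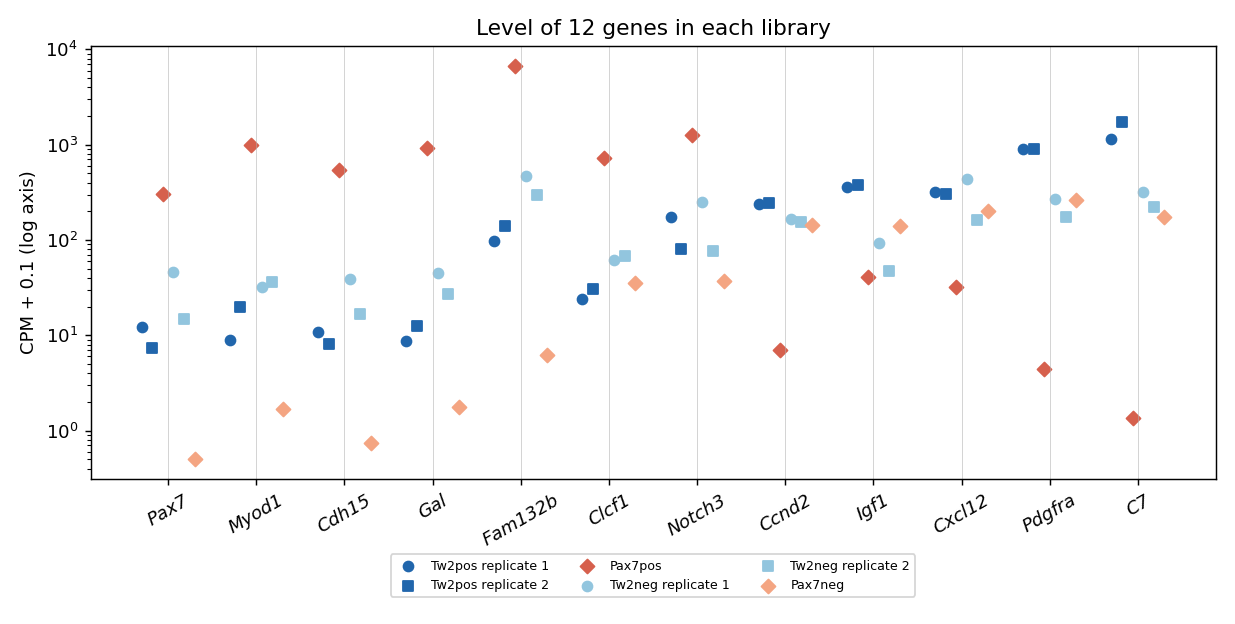
Level of 12 genes in each of the 6 libraries, in CPM plus 0.1 on a log axis, with 1 symbol per library and no averaging. For Pax7, Myod1, Cdh15, Gal, Fam132b, Clcf1 and Notch3 the Pax7pos symbol lies above both Tw2pos symbols, and for Ccnd2, Igf1, Cxcl12, Pdgfra and C7 it lies below them.

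Leukocyte markers were low in both labelled groups beside the unlabelled cells, and markers of some other cell types were not. The 22 macrophage markers summed to 414 and 580 CPM in Tw2pos and 306 CPM in Pax7pos, against 9394 to 15219 CPM in the 3 unlabelled libraries, and 11 of them were higher in Tw2pos and 2 lower (7 and 4 passed in all without Tw2pos replicate 1 and replicate 2). The 16 neutrophil markers summed to 63.3, 46.1 and 26.8 CPM, against 2947 to 7147 CPM. The 16 lymphocyte markers summed to 199 and 250 CPM in Tw2pos and 14.5 CPM in Pax7pos, and nearly all of the Tw2pos sum was Ebf1 (186 and 227 CPM), which fibroblasts express as well. The defining lymphocyte genes Cd3e and Cd79a were below 3 CPM in every labelled library. The 7 Schwann cell markers summed to 812 and 808 CPM in Tw2pos and 605 CPM in Pax7pos, against 438 to 809 CPM in the unlabelled libraries. The 8 adipocyte markers summed to 1258 and 1399 CPM in Tw2pos and 512 CPM in Pax7pos, against 1493 to 1606 CPM. The 26 endothelial markers summed to 2477 and 1807 CPM in Tw2pos and 490 CPM in Pax7pos, with 20 higher in Tw2pos and none lower, while the unlabelled libraries held 3847 to 10837 CPM. Cdh5, which encodes the cadherin of endothelial junctions, was at 144 and 99.3 CPM in Tw2pos against 20.8 CPM in Pax7pos. It did not pass under quantile normalization. There 2 of the 26 passed, and with a pseudocount of 10 only 7 did. Leaving out Tw2pos replicate 1 left 12 of the 26. The part of endothelial cells in the differences reported for vessel genes was not tested.

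**Figure D2:**
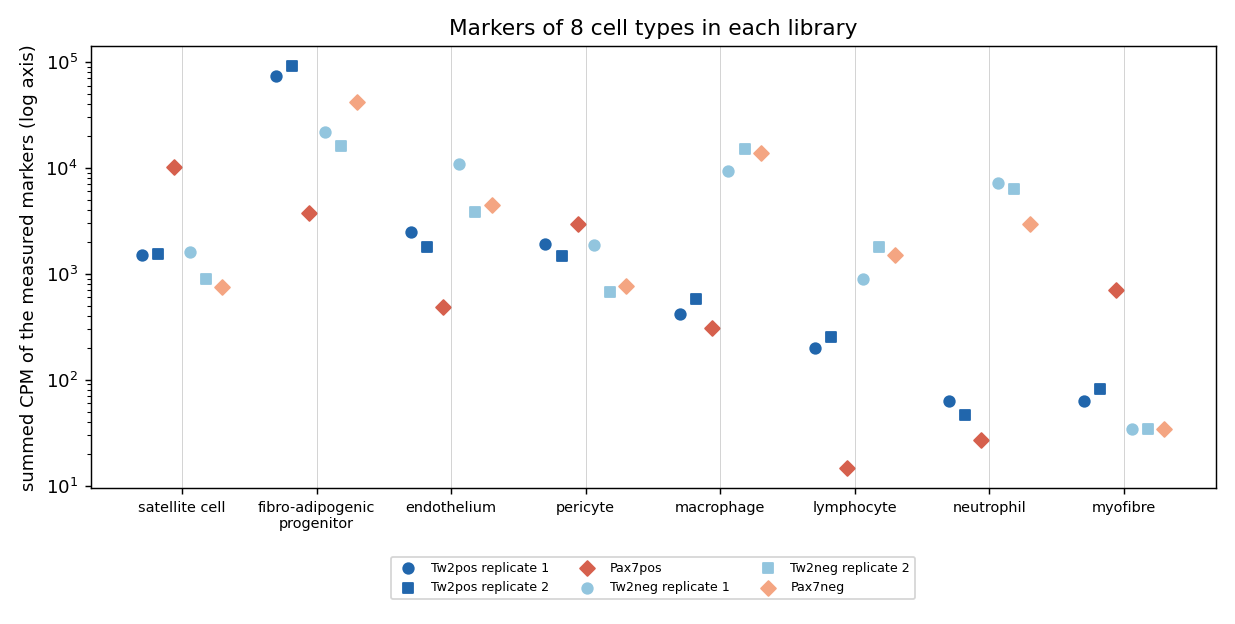
Summed CPM of the measured markers of 8 cell types in each of the 6 libraries, on a log axis. Satellite cell and myofibre markers are highest in Pax7pos (10104 and 703 CPM), fibro-adipogenic markers are highest in Tw2pos (74672 and 91743 CPM), and macrophage and neutrophil markers are highest in the unlabelled cells.

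Differences were tested as log2(CPM + 1), Tw2pos minus Pax7pos, with limma over the 6 libraries and Benjamini-Hochberg adjustment over all genes. Pax7pos, being 1 library, was taken to have the spread of the replicated groups, and the pseudocount understates the change of low genes. Over the whole table, 2905 of 4939 genes (58.8%) passed at a limma adjusted p under 0.05. Of these, 1665 were higher in Tw2pos and 1240 were lower. The median log2 difference over all genes was 0.41. Large differences were mostly on the Tw2pos side: 437 genes were at least 8-fold higher (a log2 size of 3) and 73 at least 8-fold lower. The entry rule bears on this contrast, since a gene expressed in Pax7pos alone cannot be in the table. In the table, 1526 genes were under 10 CPM in Pax7pos and 752 were under 10 CPM in both Tw2pos libraries. The part of the entry rule in the contrast was not tested. The balance of the calls depended on the scaling. TMM factors over these genes gave 1428 higher and 1540 lower with a median of 0.13, DESeq2 gave 1317 and 1618 with a median of 0.02, and quantile normalization gave 862 and 998 with a median of −0.15. No gene passed in opposite directions in any of the 13 alternatives. Leaving out Tw2pos replicate 1 gave 1658 calls, and leaving out replicate 2 gave 1858. A gene that did not pass is not shown to be equal: with the 3 labelled libraries alone in the fit, 2187 genes were higher and 1618 lower. For all 298 genes named by the rule that passed, both Tw2pos libraries lay on the same side of Pax7pos. Pax7pos is 1 library and has no range, so overlap between the groups cannot be judged. Genes that pass are already selected for a difference that is large beside the spread. The count is therefore no separate check of the calls.

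**Figure D3:**
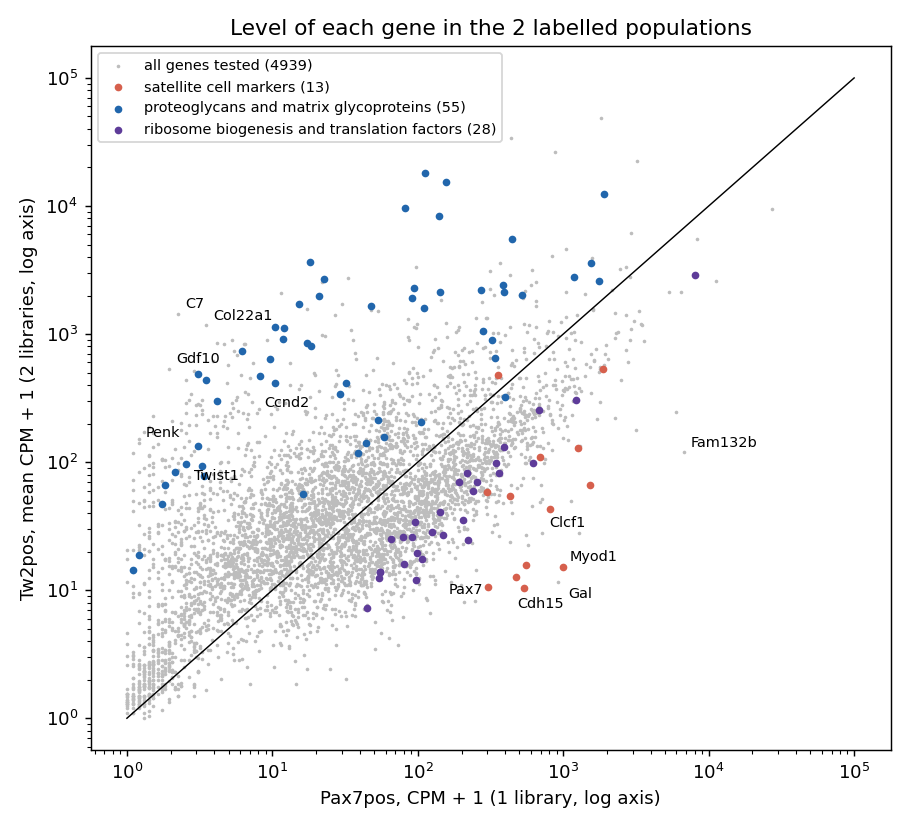
Mean CPM plus 1 in Tw2pos (2 libraries) against CPM plus 1 in Pax7pos (1 library) for all 4939 genes, both on log axes, with equal levels on the black line and 12 genes named. Satellite cell markers and genes of ribosome biogenesis lie below the line apart from Chodl, and the proteoglycan and matrix glycoprotein genes lie above it apart from Ltbp1.

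The 250 bases before the start of genes with the largest differences were read from RefSeq (GRCm38.p6), because Twist and MyoD factors are both known to bind E boxes. The motifs searched on both strands were CAGCTG, an E box of the MyoD family, and CATATG and CAGATG, E boxes of Twist factors. The windows of 2 genes high in Tw2pos and 2 genes high in Pax7pos are shown with any such match in capitals. C7 (chr15:5063774-5064023, minus strand) and Cilp (chr9:65264930-65265179, plus strand) had among the largest differences toward Tw2pos, and Des (chr1:75360042-75360291, plus strand) and Gal (chr19:3414545-3414794, minus strand) toward Pax7pos.
C7: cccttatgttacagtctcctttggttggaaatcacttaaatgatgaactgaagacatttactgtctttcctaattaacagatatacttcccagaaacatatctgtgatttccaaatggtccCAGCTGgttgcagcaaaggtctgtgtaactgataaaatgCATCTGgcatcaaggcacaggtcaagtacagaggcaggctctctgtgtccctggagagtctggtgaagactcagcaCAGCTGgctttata
Cilp: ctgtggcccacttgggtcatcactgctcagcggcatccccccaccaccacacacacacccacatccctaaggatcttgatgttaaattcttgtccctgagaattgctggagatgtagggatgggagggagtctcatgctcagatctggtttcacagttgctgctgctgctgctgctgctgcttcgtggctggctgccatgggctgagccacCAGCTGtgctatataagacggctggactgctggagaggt
Des: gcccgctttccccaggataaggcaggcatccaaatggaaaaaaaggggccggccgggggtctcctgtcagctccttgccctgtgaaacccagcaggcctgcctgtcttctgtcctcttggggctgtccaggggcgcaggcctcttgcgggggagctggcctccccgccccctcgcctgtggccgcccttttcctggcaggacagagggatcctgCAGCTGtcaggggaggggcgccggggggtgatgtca
Gal: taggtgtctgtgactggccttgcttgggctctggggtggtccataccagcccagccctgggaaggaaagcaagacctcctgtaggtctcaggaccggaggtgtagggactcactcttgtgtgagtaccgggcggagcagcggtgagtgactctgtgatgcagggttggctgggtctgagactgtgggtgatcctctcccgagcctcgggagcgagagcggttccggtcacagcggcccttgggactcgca
The C7 window held CAGCTG at 129 and at 14 bases before the start and CAGATG, read on the other strand, at 90 bases. The Cilp and Des windows each held 1 CAGCTG, at 39 and at 36 bases, and the Gal window held none of the 3 motifs. Of the 15 genes with the largest differences toward Tw2pos, 13 had a window and 4 of those held a match. Toward Pax7pos, 10 of 15 had a window and 3 held a match. Among all genes of the table, 3624 symbols matched the RefSeq promoters, and 2832 of those had a single window. A match was found in 26.4% of the 935 such genes higher in Tw2pos, 18.1% of the 739 lower and 23.1% of the 1158 that did not pass. It was found in 28.1% of the 22862 single-window promoters of the RefSeq table. The median GC content of the windows was 60.4%, 62.4%, 60.0% and 52.0% in the same order, and its part in these shares was not tested. CAGCTG alone was in 14.3% of the genes higher in Tw2pos and 10.15% of those lower. Its share was 12.4% over all genes tested and 12.7% over the single-window promoters of RefSeq, and the contrast was not tested. A match describes the letters and does not show that a factor binds.

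Receptors and targets of the Notch pathway were among the genes higher in the Pax7-labelled cells. Notch holds satellite cells quiescent through receptors at the membrane and repressors of the Hes and Hey families in the nucleus. Of 14 measured genes of the pathway (23 in the list), 6 (42.9%) were lower in Tw2pos and 3 (21.4%) higher. Over all genes tested 25.1% were lower and 33.7% higher. Notch3, a receptor (chromosome 17, 32120820 to 32166852, minus strand), was at 176 and 80.2 CPM in Tw2pos against 1253 CPM in Pax7pos (log2 difference −3.39, SE 0.70, limma adjusted p = 0.0053). The Tw2pos replicates were far apart, but both lay below Pax7pos. Notch1, another receptor, was at 81.8 and 78.2 CPM in Tw2pos against 343 CPM in Pax7pos (log2 difference −2.09, SE 0.38, limma adjusted p = 0.003). The target Heyl, a repressor, was at 53.5 and 53.0 CPM in Tw2pos against 428 CPM in Pax7pos (log2 difference −2.98, SE 0.48, limma adjusted p = 0.0017), and Hey1 was at 13.7 and 8.57 CPM in Tw2pos against 78.9 CPM in Pax7pos. For all 4 genes Pax7pos lay above both Tw2pos libraries. Hes1, another target, was at 123 and 122 CPM in Tw2pos against 87.0 CPM in Pax7pos and did not pass (log2 difference 0.48, SE 0.39, limma adjusted p = 0.31). The genes higher in Tw2pos were the receptor Notch4, the ligand Dll4 and the glycosyltransferase Lfng, each below 15 CPM in both Tw2pos libraries and at 30.1 to 104 CPM in the Tw2neg libraries. Notch4 and Dll4 are known from endothelium. All 3 calls were lost under quantile normalization and with a pseudocount of 10, Lfng also when either Tw2pos replicate was left out, and Dll4 without replicate 1.

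Genes for signals of the fibroblast and hepatocyte growth factors differed in both directions. Of 19 measured genes of the group, 7 were higher in Tw2pos (36.8%, against 33.7% of all genes tested) and 7 were lower (36.8%, against 25.1%). Fgfr4 (chromosome 13, 55152640 to 55168759, plus strand) was at 13.2 and 16.2 CPM in Tw2pos against 557 CPM in Pax7pos (log2 difference −5.16, SE 0.53, limma adjusted p = 0.00024). Fgfr1 was at 528 and 587 CPM in Tw2pos against 1533 CPM in Pax7pos (log2 difference −1.46, SE 0.37, limma adjusted p = 0.011), and Met, the receptor of hepatocyte growth factor, was at 29.9 and 26.0 CPM in Tw2pos against 144 CPM in Pax7pos (log2 difference −2.33, SE 0.34, limma adjusted p = 0.0011). Pax7pos was also higher for Sdc4 and Gpc1, heparan sulfate proteoglycans that act as co-receptors, and for Spry2 and Spred1, which restrain the signal inside the cell. The receptor Fgfr2 was higher in Tw2pos, and the receptors Fgfr3 (log2 difference 0.25, SE 0.50, limma adjusted p = 0.68) and Fgfrl1 (log2 difference 0.73, SE 0.39, limma adjusted p = 0.14) did not pass. Both measured ligands of these receptors were higher in Tw2pos. Fgf7 had 60.3 and 58.8 CPM in Tw2pos against 0.522 CPM in Pax7pos from 5 reads (log2 difference 5.31, SE 0.38, limma adjusted p = 5.0e-05), and Fgf1 had 45.5 and 39.4 CPM in Tw2pos against 2.19 CPM in Pax7pos (log2 difference 3.76, SE 0.45, limma adjusted p = 0.00047). Both ligands came from 21 reads or fewer in Pax7pos. Tw2pos was also higher for the co-receptors Gpc3 (log2 difference 4.10) and Gpc6 (3.22). Without Tw2pos replicate 1 the call of Fgfr1 was lost.

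Of the 4 measured genes of the nerve-muscle synapse, out of 15 in the list, 3 were lower in Tw2pos and 1 was higher. Chrnb1, the beta subunit of the muscle acetylcholine receptor (chromosome 11, 69784036 to 69795943, minus strand), was at 21.7 and 24.0 CPM in Tw2pos against 426 CPM in Pax7pos (log2 difference −4.17, SE 0.40, limma adjusted p = 0.00018). Musk, the receptor kinase that gathers acetylcholine receptors at the synapse, was at 19.8 and 21.3 CPM in Tw2pos against 184 CPM in Pax7pos (log2 difference −3.10, SE 0.35, limma adjusted p = 0.00036). Lrp4, the partner of Musk that binds agrin, was the opposite, at 95.8 and 82.1 CPM in Tw2pos against 18.3 CPM in Pax7pos (log2 difference 2.22, SE 0.40, limma adjusted p = 0.003). The receptor kinase and its partner thus stood on opposite sides. Ank3, an ankyrin that anchors channels, was lower in Tw2pos (−4.13). Acta1, the actin of skeletal muscle fibres, was at 13.4 and 29.6 CPM in Tw2pos against 576 CPM in Pax7pos, and Tnnt3, a fast troponin, at 13.4 and 15.1 CPM in Tw2pos against 67.2 CPM in Pax7pos. Both passed as lower in Tw2pos. Flnc, the filamin of muscle, was at 204 and 286 CPM in Tw2pos against 5991 CPM in Pax7pos (log2 difference −4.63, SE 0.36, limma adjusted p = 7.0e-05). Of 20 myofibre markers only 4 were measured, and 3 were lower in Tw2pos, so the fibre genes of the whole list cannot be described from this table. In the unlabelled cells Acta1 was at 4.16 to 7.05 CPM.

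Contractile genes known from smooth muscle and pericytes were higher in Tw2pos. Myh11, smooth muscle myosin, was at 337 and 166 CPM in Tw2pos against 15.9 CPM in Pax7pos (log2 difference 3.82, SE 0.65, limma adjusted p = 0.0023), Mylk at 279 and 178 CPM in Tw2pos against 37.5 CPM in Pax7pos and Myl9 at 163 and 94.4 CPM in Tw2pos against 14.8 CPM in Pax7pos. For these genes Tw2pos replicate 1 was higher than replicate 2 while both lay above Pax7pos. Of 12 pericyte markers, 9 were higher in Tw2pos. The exceptions Des and Notch3, both also satellite cell genes, were lower, and Mcam did not pass. The 12 markers summed to 1919 and 1488 CPM in Tw2pos and 2962 CPM in Pax7pos, where Des and Notch3 make up most of the sum. Tw2neg held 482 and 162 CPM of Myh11, and the Myl9 call was lost under quantile normalization. The part of pericytes in these differences was not tested.

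A group of signals of the interleukin 6 family was divided between the populations. Clcf1, a cytokine of that family (chromosome 19, 4214238 to 4223490, plus strand), was at 23.9 and 30.2 CPM in Tw2pos against 717 CPM in Pax7pos (log2 difference −4.69, SE 0.32, limma adjusted p = 4.3e-05). The receptor Osmr was at 195 and 228 CPM in Tw2pos against 832 CPM in Pax7pos (log2 difference −1.98, SE 0.35, limma adjusted p = 0.0028). Both genes were higher in Pax7pos than in any other library. Il6 was the reverse, with 450.1 and 511 CPM in Tw2pos against 42.8 CPM in Pax7pos (log2 difference 3.45, SE 0.33, limma adjusted p = 0.00018). Il6st, the receptor chain that the family shares, was at 959 and 915 CPM in Tw2pos against 1051 CPM in Pax7pos and did not pass (log2 difference −0.17, SE 0.40, limma adjusted p = 0.73). Il6 stood at 533 CPM in Pax7neg and at 179 and 138 CPM in Tw2neg.

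The chemokine Cxcl12 and its receptor Cxcr4 stood on opposite sides, and other chemokines differed in either direction. Cxcl12, the chemokine that binds Cxcr4, was at 318 and 306 CPM in Tw2pos against 32.0 CPM in Pax7pos (log2 difference 3.25, SE 0.53, limma adjusted p = 0.002). Cxcr4 itself was at 8.86 and 10.9 CPM in Tw2pos against 196 CPM in Pax7pos (log2 difference −4.19, SE 0.42, limma adjusted p = 0.00022). Unlabelled cells held more Cxcr4 than either labelled group, between 248 and 504 CPM. Cxcl14 (218 and 259 CPM in Tw2pos against 24.7 CPM in Pax7pos) was higher in Tw2pos, as were Ccl11, Ccl7 and Ccl8. Cxcl1 and Cxcl2, which attract neutrophils, were lower in Tw2pos, with Cxcl2 at 28.4 and 43.2 CPM in Tw2pos against 151 CPM in Pax7pos. Over the 35 measured chemokines, cytokines and receptors, 12 were higher in Tw2pos, 8 lower and 15 did not pass. The shares, 34.3% higher and 22.9% lower, were close to those of all genes tested (33.7% and 25.1%).

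Secreted hormones and neuropeptides held some of the most one-sided differences. Gal, which encodes the neuropeptide galanin (chromosome 19, 3409915 to 3414544, minus strand), was at 8.55 and 12.6 CPM in Tw2pos against 916 CPM in Pax7pos (log2 difference −6.33, SE 0.43, limma adjusted p = 4.3e-05). Fam132b, which encodes erythroferrone, a hormone that acts on iron supply, was at 97.6 and 139.8 CPM in Tw2pos against 6752 CPM in Pax7pos (log2 difference −5.84, SE 0.40, limma adjusted p = 4.3e-05). The unlabelled values of the first were 45.0 and 26.98 CPM in Tw2neg and 1.69 CPM in Pax7neg, and those of the second were 467, 299 and 6.19 CPM, so the levels in Pax7neg were the lowest. Penk, the enkephalin precursor (chromosome 4, 4133531 to 4138819, minus strand), was the reverse, with 135 and 146 CPM in Tw2pos against 0.209 CPM in Pax7pos from 2 reads (log2 difference 6.87, SE 0.33, limma adjusted p = 2.7e-05). Tw2pos was also higher for Nmb, the neuromedin B precursor (4.39), Ptn, the growth factor pleiotrophin (4.49), and C1qtnf1 (5.01). Bdnf and Ntf3, which encode neurotrophins, did not pass. Of 14 measured genes of this group 7 were higher in Tw2pos and 2 lower.

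The machinery that makes ribosomes was higher in Pax7pos almost throughout the members measured. Of 37 genes for ribosome biogenesis and translation, 28 were measured, and 27 were lower in Tw2pos with none higher. The median log2 difference was −2.001, against 0.41 for all genes tested. Ncl, nucleolin, was at 278 and 328 CPM in Tw2pos against 1222 CPM in Pax7pos (log2 difference −2.01, SE 0.40, limma adjusted p = 0.0044). Ddx21, a nucleolar helicase, was at 90.3 and 105 CPM in Tw2pos against 622 CPM in Pax7pos (log2 difference −2.66, SE 0.35, limma adjusted p = 0.00073), and Rrp12 was at 11.3 and 10.6 CPM in Tw2pos against 96.8 CPM in Pax7pos (log2 difference −3.03, SE 0.35, limma adjusted p = 0.00041). All lay below their Pax7pos level in both Tw2pos libraries. Eif4ebp1, which restrains translation initiation, had the largest difference, at 22.6 and 24.5 CPM in Tw2pos against 219 CPM in Pax7pos (log2 difference −3.17, SE 0.32, limma adjusted p = 0.00023). The 1 member that did not pass was Eef1a1, the elongation factor, at 2367 and 3369 CPM in Tw2pos against 8035 CPM in Pax7pos (log2 difference −1.51, SE 0.58, limma adjusted p = 0.055). It passed in 9 of the 13 alternatives. Ribosomal proteins followed. Of 74 in the list, 40 were measured, 36 were lower in Tw2pos, none was higher, and the median was −1.86. Rpl4 was at 765 and 1029 CPM in Tw2pos against 2893 CPM in Pax7pos (log2 difference −1.70, SE 0.46, limma adjusted p = 0.015). Reads of ribosomal protein genes can be shared with their many processed pseudogenes, so single values are uncertain. The call of Rpl4 was lost without Tw2pos replicate 1. These members were selected in part by the same library: 28 of the 40 ribosomal protein genes (70.0%) and 20 of the 28 biogenesis genes (71.4%) are in the table only because Pax7pos differed from Tw2neg. In the unlabelled cells the median log2 difference of the measured ribosomal protein genes, Tw2neg minus Pax7neg, was −0.83, against −0.06 over all genes. Rn45s moved with these genes, as given above, and its part in the result was not tested.

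Transcripts for amino acid supply were mostly higher in Pax7pos. The list holds transporters, serine and one-carbon enzymes, and the transcription factor Atf4 with its targets, which cells use when amino acids or protein folding are limiting. Of 25 measured members, 18 were lower in Tw2pos (72.0%, against 25.1% of all genes tested) and 1 was higher. Of the 25, 11 (44.0%) are in the table only because Pax7pos differed from Tw2neg, against 37.5% of all genes tested. Slc7a5, the light chain of the large neutral amino acid transporter (chromosome 8, 121881150 to 121907694, minus strand), was at 36.0 and 52.9 CPM in Tw2pos against 611 CPM in Pax7pos (log2 difference −3.78, SE 0.36, limma adjusted p = 0.00018), and its heavy chain Slc3a2 was at 251 and 346 CPM in Tw2pos against 1158 CPM in Pax7pos (log2 difference −1.97, SE 0.36, limma adjusted p = 0.0031). Both chains of the transporter were higher in Pax7pos. Mthfd2, a mitochondrial folate enzyme, was at 23.9 and 31.2 CPM in Tw2pos against 321 CPM in Pax7pos (log2 difference −3.51, SE 0.41, limma adjusted p = 0.00042). Sesn2, an Atf4 target that restrains mTORC1, was at 22.96 and 39.5 CPM in Tw2pos against 331 CPM in Pax7pos (log2 difference −3.41, SE 0.39, limma adjusted p = 0.00039). Atf4 itself was at 550.3 and 701 CPM in Tw2pos against 1633 CPM in Pax7pos (log2 difference −1.39, SE 0.38, limma adjusted p = 0.015). Slc1a3, a glutamate transporter, was the member higher in Tw2pos, at 22.7 and 25.0 CPM in Tw2pos against 3.55 CPM in Pax7pos. Without Tw2pos replicate 1, 12 of the 25 passed, and Atf4 did not. The Slc1a3 call was lost under quantile normalization.

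Chaperones were higher in Pax7pos, but they also differed inside the Tw2pos pair. Of 25 measured genes for cytosolic and endoplasmic reticulum chaperones and heat-shock proteins, 20 were lower in Tw2pos and 2 higher, with a median of −1.53. Hspa5, the chaperone of the endoplasmic reticulum, was at 2103 and 3078 CPM in Tw2pos against 11181 CPM in Pax7pos (log2 difference −2.14, SE 0.52, limma adjusted p = 0.0098), and Hspa9 of the mitochondrion was at 171 and 194 CPM in Tw2pos against 916 CPM in Pax7pos (log2 difference −2.33, SE 0.34, limma adjusted p = 0.0011). Hsph1 was at 243 and 638 CPM in Tw2pos against 2482 CPM in Pax7pos (log2 difference −2.65, SE 0.71, limma adjusted p = 0.015), so that replicate 2 of Tw2pos lay between replicate 1 and Pax7pos. The median difference between Tw2pos replicates 1 and 2 over these genes was −0.55 on the log2 scale, against −0.05 over all genes. The Tw2neg replicates were at 253 and 686 CPM of Hsph1. Without Tw2pos replicate 1 only 8 of the 25 passed, and Hspa5 was not among them. The members higher in Tw2pos were Hspb8, a small heat-shock protein, at 141 and 224 CPM in Tw2pos against 60.2 CPM in Pax7pos, and Hspa12b at 29.97 and 21.0 CPM in Tw2pos against 3.03 CPM in Pax7pos. The call of Hspb8 was lost without Tw2pos replicate 2, and that of Hspa12b under quantile normalization and with a pseudocount of 10. Of the 25 genes, 18 (72.0%) are in the table only because Pax7pos differed from Tw2neg.

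**Figure D4:**
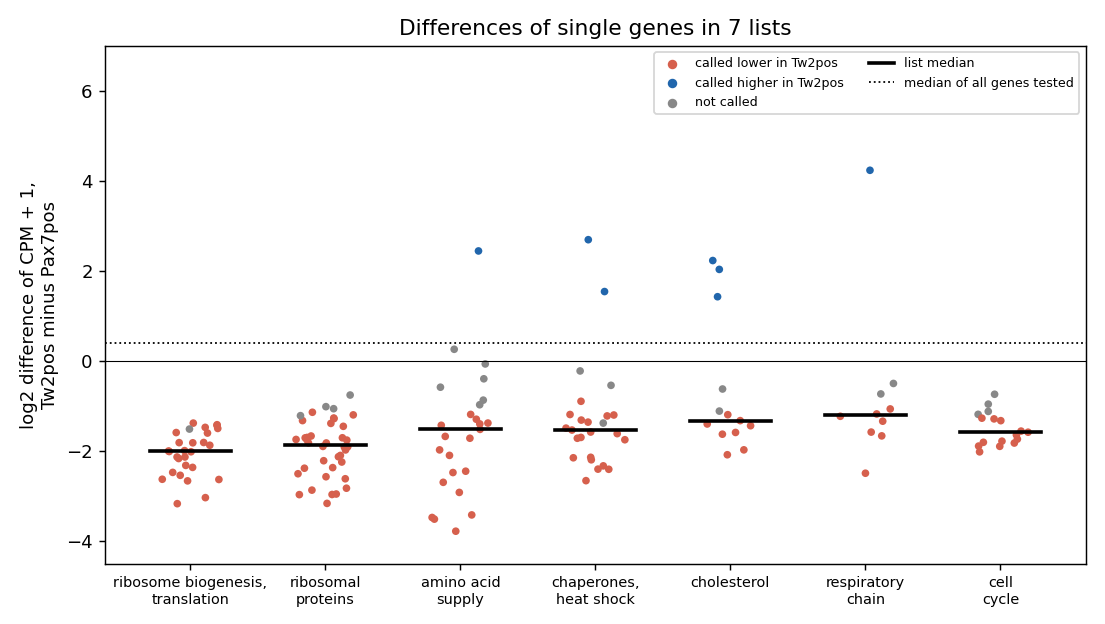
Log2 difference of CPM plus 1, Tw2pos minus Pax7pos, for each measured gene of 7 lists, coloured by its call, with the list median as a bar and the median of all genes tested as a dotted line. All 68 genes for ribosome biogenesis, translation and ribosomal proteins lie below 0, and 1 respiratory chain gene, Ndufa4l2, lies far above its list.

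Mitochondrial and cholesterol genes were measured in small numbers and were mostly lower in Tw2pos. Many of them were selected by the same library: 6 of the 10 respiratory chain genes (60.0%), 5 of the 6 genes for mitochondrial biogenesis (83.3%) and 10 of the 13 cholesterol genes (76.9%) are in the table only because Pax7pos differed from Tw2neg. Of 10 measured respiratory chain genes out of 63, 7 were lower in Tw2pos. Cox8a, a subunit of cytochrome oxidase, was at 40.9 and 42.7 CPM in Tw2pos against 239 CPM in Pax7pos (log2 difference −2.49, SE 0.31, limma adjusted p = 0.00058). Ndufa4l2, a subunit relative that is known from pericytes and hypoxia, was the opposite, at 43.6 and 43.5 CPM in Tw2pos against 1.36 CPM in Pax7pos (log2 difference 4.24, SE 0.60, limma adjusted p = 0.0011). Tfam, the factor that packs mitochondrial DNA, was at 18.7 and 17.4 CPM in Tw2pos against 106 CPM in Pax7pos (log2 difference −2.48, SE 0.41, limma adjusted p = 0.0021). Among 13 measured genes of cholesterol metabolism, 8 were lower in Tw2pos, all of them enzymes or the regulator of synthesis. Msmo1 was at 49.7 and 73.2 CPM in Tw2pos against 239 CPM in Pax7pos. The 3 genes higher in Tw2pos export or take up lipid: Abca1 (254 and 292 CPM in Tw2pos against 57.0 CPM in Pax7pos), Abcg1 and the lipase Lpl (543 and 693 CPM in Tw2pos against 149 CPM in Pax7pos). Abcg1 was below 7 CPM in Tw2pos, and its call was lost when either Tw2pos replicate was left out. Pdk4, which restrains pyruvate use by mitochondria, was at 22.96 and 40.9 CPM in Tw2pos against 348 CPM in Pax7pos (log2 difference −3.46, SE 0.41, limma adjusted p = 0.00047). Without Tw2pos replicate 1, 4 of the 13 cholesterol genes and 3 of the 10 respiratory genes passed, and without replicate 2, 4 of the respiratory genes did.

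Sugar metabolism was divided between members, with 6 of 16 measured genes (37.5%) lower in Tw2pos and 3 (18.8%) higher. Over all genes tested the shares were 25.1% and 33.7%. Slc2a1, the basal glucose transporter, was at 94.3 and 123 CPM in Tw2pos against 331 CPM in Pax7pos (log2 difference −1.61, SE 0.32, limma adjusted p = 0.0046), and the kinase Hk2, which traps glucose in the cell, was at 381 and 518 CPM in Tw2pos against 553 CPM in Pax7pos and did not pass (log2 difference −0.32, SE 0.35, limma adjusted p = 0.45). Eno3, the enolase of muscle, was at 10.4 and 14.8 CPM in Tw2pos against 49.1 CPM in Pax7pos (log2 difference −1.90, SE 0.42, limma adjusted p = 0.0068). Eno2, the enolase known from neurons, was the reverse, at 25.1 and 32.7 CPM in Tw2pos against 4.91 CPM in Pax7pos (log2 difference 2.33, SE 0.39, limma adjusted p = 0.0021). The 2 enolases thus differed in direction between the populations. The call of Eno3 was lost without Tw2pos replicate 1 and that of Eno2 under quantile normalization. In all, 5 of the 16 genes passed without Tw2pos replicate 1 or without replicate 2.

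Genes of oxidative defence were found on both sides. Of 28 measured, 46.4% were higher in Tw2pos and 21.4% lower, against 33.7% and 25.1% of all genes tested. Srxn1, a sulfiredoxin, was at 179 and 253 CPM in Tw2pos against 1693 CPM in Pax7pos (log2 difference −2.99, SE 0.35, limma adjusted p = 0.00047). Gclm, which makes glutathione, was at 34.3 and 41.1 CPM in Tw2pos against 157 CPM in Pax7pos (log2 difference −2.03, SE 0.32, limma adjusted p = 0.0016), and Txnrd1, a thioredoxin reductase, was at 342 and 443 CPM in Tw2pos against 1176 CPM in Pax7pos (log2 difference −1.59, SE 0.36, limma adjusted p = 0.0071). Srxn1, Gclm and Txnrd1, known targets of Nrf2, were thus higher in Pax7pos. Hmox1, also a target, was at 524 and 1253 CPM in Tw2pos against 3589 CPM in Pax7pos and at 3367 CPM in Pax7neg. Other members of the list did not all follow. Gclc and Gss were lower in Tw2pos too, but Gsr and Gstm2 were higher, and Prdx1, Txn1 and Gstm1 did not pass. The calls of Txnrd1 and Hmox1 were lost without Tw2pos replicate 1. The extracellular enzyme Sod3 was higher in Tw2pos, at 334 and 403 CPM in Tw2pos against 53.4 CPM in Pax7pos (log2 difference 2.76, SE 0.37, limma adjusted p = 0.00085), as was Sepp1, a secreted selenoprotein, at 921 and 1243 CPM in Tw2pos against 189 CPM in Pax7pos. The largest difference of the group was Cyp1b1, a cytochrome of sterols and retinoids, with 83.7 and 103 CPM in Tw2pos against 0.418 CPM in Pax7pos from 4 reads (log2 difference 6.05, SE 0.34, limma adjusted p = 2.8e-05). The metallothioneins Mt1 and Mt2 did not pass, with log2 differences of −0.01 (SE 0.49) and −0.08 (SE 0.50). Of 28 measured genes 13 were higher in Tw2pos and 6 lower, and 10 in all passed without Tw2pos replicate 1, 11 without replicate 2 and 11 under quantile normalization.

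Among 8 measured regulators of entry into the cycle (D cyclins, inhibitors and pocket proteins), 3 were higher in Tw2pos, 3 were lower and 2 did not pass, and without Tw2pos replicate 1 only 3 of the 8 passed. The share was 37.5% in each direction, against 33.7% higher and 25.1% lower over all genes tested. Of the 8, 6 (75.0%) are in the table only because Pax7pos differed from Tw2neg. Ccnd2, cyclin D2 (chromosome 6, 127125162 to 127152193, minus strand), was at 238 and 247 CPM in Tw2pos against 6.89 CPM in Pax7pos (log2 difference 4.95, SE 0.30, limma adjusted p = 3.0e-05). Unlabelled cells were at 144 to 165 CPM, so Pax7pos was the only group with a low level. Ccnd1, cyclin D1, was the reverse, at 57.2 and 56.7 CPM in Tw2pos against 129.7 CPM in Pax7pos (log2 difference −1.17, SE 0.36, limma adjusted p = 0.024). Cdkn1c, the inhibitor p57 (chromosome 7, 143458339 to 143461050, minus strand), was at 60.2 and 63.8 CPM in Tw2pos against 478 CPM in Pax7pos (log2 difference −2.93, SE 0.42, limma adjusted p = 0.0011), and Cdkn1a, the inhibitor p21, was at 389.7 and 501 CPM in Tw2pos against 1130 CPM in Pax7pos (log2 difference −1.35, SE 0.40, limma adjusted p = 0.02). Cdkn2d, the inhibitor p19, was the reverse, at 54.8 and 58.3 CPM in Tw2pos against 19.6 CPM in Pax7pos (log2 difference 1.48, SE 0.31, limma adjusted p = 0.0054). Rbl2, a pocket protein of resting cells, was higher in Tw2pos, at 75.9 and 78.3 CPM in Tw2pos against 23.7 CPM in Pax7pos. Among proliferation genes, Mki67 was at 19.7 and 10.04 CPM in Tw2pos against 55.1 CPM in Pax7pos, beside 121 and 149 CPM in Tw2neg and 56.2 CPM in Pax7neg, and Top2a was at 18.3 and 9.06 CPM in Tw2pos against 47.6 CPM in Pax7pos. Of 17 measured proliferation genes 13 were lower in Tw2pos and none was higher, and 14 of the 17 were in the table only because Tw2pos differed from Tw2neg. Without Tw2pos replicate 1, 6 of the 17 passed, and without replicate 2, only 2 did, with Mki67 and Top2a both lost. The call of Cdkn1a was lost without replicate 1, and that of Ccnd1 when either replicate was left out.

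Imprinted genes, which are read from 1 parental copy, were mostly higher in Pax7pos. Of 15 measured, 10 (66.7%) were lower in Tw2pos and 2 (13.3%) higher, against 25.1% and 33.7% of all genes tested. Meg3 was at 313 and 277 CPM in Tw2pos against 1787 CPM in Pax7pos (log2 difference −2.60, SE 0.40, limma adjusted p = 0.0016). It is a noncoding RNA of the cluster that also holds Dlk1, which was at 16.1 and 13.6 CPM in Tw2pos against 68.3 CPM in Pax7pos (log2 difference −2.13, SE 0.42, limma adjusted p = 0.0041). Peg3, a zinc finger protein, was at 143 and 123 CPM in Tw2pos against 654 CPM in Pax7pos (log2 difference −2.30, SE 0.34, limma adjusted p = 0.0013). Sgce, epsilon-sarcoglycan, and Ndn, the necdin gene, were the 2 higher in Tw2pos, with Ndn at 94.2 and 126 CPM in Tw2pos against 7.10 CPM in Pax7pos (log2 difference 3.77, SE 0.42, limma adjusted p = 0.00036). Mest and Peg10 did not pass. Leaving out Tw2pos replicate 1 left 8 of the 15, and leaving out replicate 2 left 7.

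The insulin-like growth factor group had 8 of 13 measured genes (61.5%) higher in Tw2pos and 3 (23.1%) lower. Over all genes tested the shares were 33.7% and 25.1%. The ligand Igf1 and its receptor Igf1r stood on opposite sides, though the Igf1r call did not hold in every alternative. Igf1, chosen after its values were seen, was at 361 and 373 CPM in Tw2pos against 40.8 CPM in Pax7pos (log2 difference 3.14, SE 0.43, limma adjusted p = 0.00089). The receptors were lower in Tw2pos: Igf1r was at 88.9 and 87.3 CPM in Tw2pos against 223 CPM in Pax7pos (log2 difference −1.33, SE 0.33, limma adjusted p = 0.011), and Igf2r, which clears Igf2 and is itself imprinted, was at 274 and 267 CPM in Tw2pos against 676 CPM in Pax7pos (log2 difference −1.32, SE 0.32, limma adjusted p = 0.01). Igfbp6, a binding protein with a preference for Igf2, was at 1661 and 1770 CPM in Tw2pos against 29.1 CPM in Pax7pos (log2 difference 5.83, SE 0.38, limma adjusted p = 4.0e-05). Igfbp3, Igfbp5 and Igfbp7 were higher in Tw2pos too, with log2 differences from 1.99 to 3.57. Pappa2, a protease that cuts such binding proteins, had 121 and 87.7 CPM in Tw2pos against 0.731 CPM in Pax7pos from 7 reads (log2 difference 5.91, SE 0.59, limma adjusted p = 0.00021). Igf2bp2, an RNA-binding protein, was lower in Tw2pos (−2.42). The calls of both receptors were lost when either Tw2pos replicate was left out, and that of Igf1r also under quantile normalization.

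Fibrillar collagens and their partners had 14 of 16 measured genes higher in Tw2pos and none lower, with a median of 3.99. Col1a2 was at 33361 and 34255 CPM in Tw2pos against 436 CPM in Pax7pos (log2 difference 6.27, SE 0.73, limma adjusted p = 0.00041), and Col11a1 was at 735 and 729.6 CPM in Tw2pos against 4.49 CPM in Pax7pos (log2 difference 7.06, SE 0.48, limma adjusted p = 4.3e-05). Col3a1 differed less, at 22691 and 22459 CPM in Tw2pos against 3225 CPM in Pax7pos (log2 difference 2.81, SE 0.74, limma adjusted p = 0.014). The exceptions were Col5a3, at 866 and 924 CPM in Tw2pos against 1209 CPM in Pax7pos (log2 difference −0.43, SE 0.40, limma adjusted p = 0.37), and Col20a1. Among the other collagens 13 of 18 were higher, including the microfibril chain Col6a3, at 2823 and 2683 CPM in Tw2pos against 32.0 CPM in Pax7pos (log2 difference 6.38, SE 0.47, limma adjusted p = 5.5e-05). The basement membrane collagens divided. Col4a3 was at 88.8 and 93.6 CPM in Tw2pos against 0.836 CPM in Pax7pos (log2 difference 5.65, SE 0.44, limma adjusted p = 7.0e-05), whereas Col4a1, at 3102 and 3627 CPM in Tw2pos against 2721 CPM in Pax7pos (log2 difference 0.30, SE 0.55, limma adjusted p = 0.65), Col4a2 (log2 difference 1.03, SE 0.52, limma adjusted p = 0.12) and Col15a1 (log2 difference 0.21, SE 0.45, limma adjusted p = 0.7) did not pass.

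Enzymes that mature collagen were higher in Tw2pos in 16 of 21 measured genes, with none lower. Lox, which crosslinks collagen, was at 1193 and 1201 CPM in Tw2pos against 98.1 CPM in Pax7pos (log2 difference 3.60, SE 0.43, limma adjusted p = 0.0005), and its relative Loxl4 was at 237 and 218 CPM in Tw2pos against 3.13 CPM in Pax7pos (log2 difference 5.79, SE 0.45, limma adjusted p = 6.6e-05). Adamts2 and Adamts3, which trim the N-terminal propeptide, had log2 differences of 4.94 and 5.34. Pcolce, an enhancer of C-terminal trimming, was at 1544 and 1556 CPM in Tw2pos against 46.6 CPM in Pax7pos (log2 difference 5.03, SE 0.42, limma adjusted p = 9.0e-05). The proteinase that it assists, Bmp1, was at 419.7 and 485 CPM in Tw2pos against 374 CPM in Pax7pos and did not pass (log2 difference 0.27, SE 0.38, limma adjusted p = 0.55). Nor did the prolyl hydroxylases P4ha1 and P4ha2 or the collagen chaperone Serpinh1 (1913 and 2163 CPM in Tw2pos against 1409 CPM in Pax7pos). Adamts14 was the fifth of these, and it was lower in level in Tw2pos (log2 difference −0.94, SE 0.38, limma adjusted p = 0.063). In Pax7pos the 5 genes were at 31.9 to 1409 CPM.

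Proteoglycans and matrix glycoproteins had 50 of 55 measured genes higher in Tw2pos and none lower, with a median of 4.61. Dcn, decorin, was at 14124 and 16580 CPM in Tw2pos against 156 CPM in Pax7pos (log2 difference 6.61, SE 0.55, limma adjusted p = 9.0e-05). Fmod, fibromodulin, was at 10292 and 9009 CPM in Tw2pos against 80.7 CPM in Pax7pos (log2 difference 6.88, SE 0.60, limma adjusted p = 0.00012), and Aspn, asporin, was at 429 and 548 CPM in Tw2pos against 2.09 CPM in Pax7pos (log2 difference 7.30, SE 0.39, limma adjusted p = 2.7e-05). Podn, podocan, and Mgp, matrix Gla protein, had log2 differences of 6.97 and 6.90. The 5 genes that did not pass were Hspg2, perlecan of the basement membrane, at 2695 and 2456 CPM in Tw2pos against 1771 CPM in Pax7pos, Matn2, and the latent TGF-beta binding proteins Ltbp1, Ltbp3 and Ltbp4. Among proteases and inhibitors 22 of 32 were higher in Tw2pos, with Ctsk, cathepsin K, at 357 and 546 CPM in Tw2pos against 6.06 CPM in Pax7pos (log2 difference 5.97, SE 0.37, limma adjusted p = 3.3e-05). Adam12, a metalloprotease of regenerating muscle, and Adamts10 were the 2 that were lower, both with a log2 difference of −1.56. The call of Adam12 was lost when either Tw2pos replicate was left out. In the unlabelled cells, Dcn stood between the labelled groups, at 3403 and 2465 CPM in Tw2neg and 7294 CPM in Pax7neg.

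**Figure D5:**
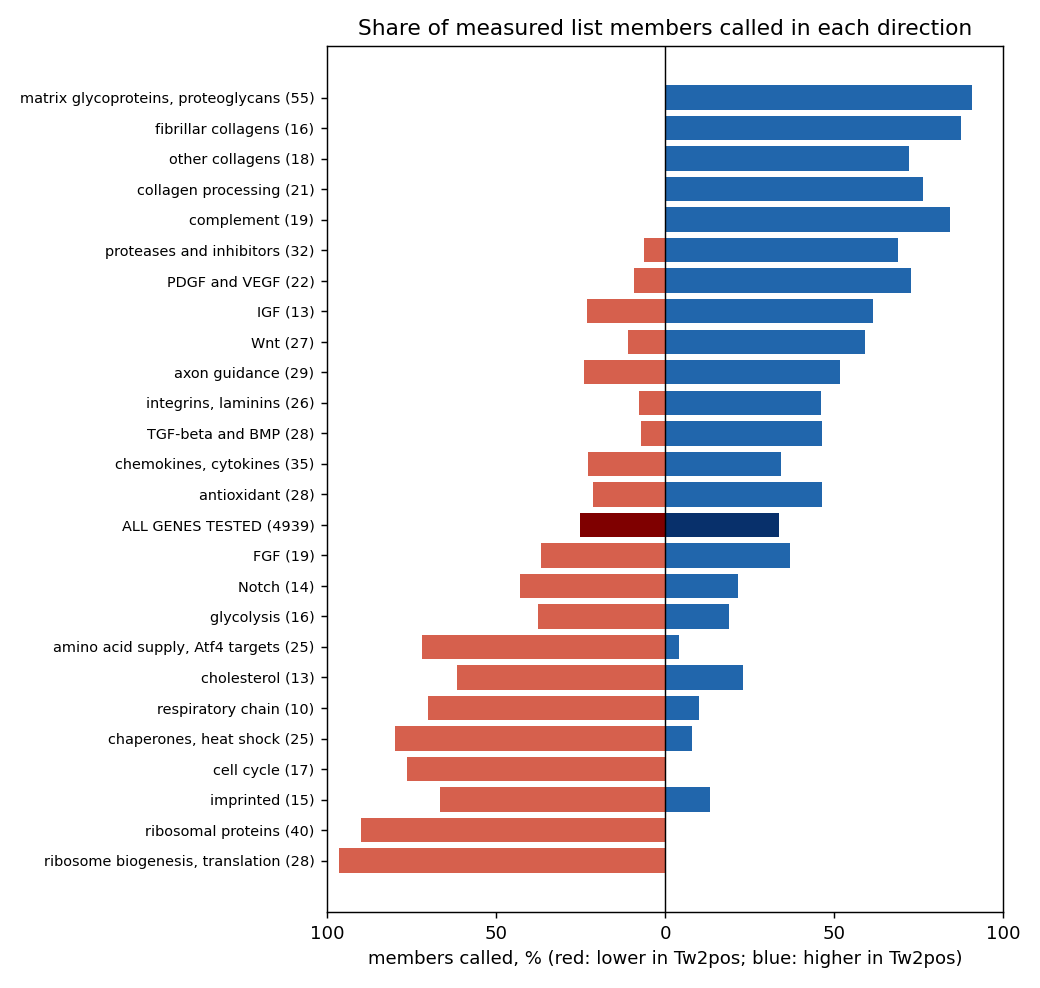
Percentage of measured members of 25 gene lists that passed as higher (blue, right) or lower (red, left) in Tw2pos, with the number measured in brackets and all genes tested as the dark bar (33.7% higher, 25.1% lower). The lists of collagens, collagen processing, matrix glycoproteins and complement have no red bar, and those of ribosomes and the cell cycle have no blue bar.

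Of 26 measured integrins and laminins 12 (46.2%) were higher in Tw2pos and 2 (7.69%) lower, against 33.7% and 25.1% of all genes tested. Itga7, the laminin receptor of muscle cells, was at 52.6 and 31.4 CPM in Tw2pos against 809 CPM in Pax7pos (log2 difference −4.28, SE 0.57, limma adjusted p = 0.00075). Itga11 and Itga10, receptors of collagen, were at 193 and 186 CPM in Tw2pos against 3.03 CPM in Pax7pos (log2 difference 5.56, SE 0.35, limma adjusted p = 3.3e-05) and at 151 and 183 CPM in Tw2pos against 4.81 CPM in Pax7pos (log2 difference 4.85, SE 0.43, limma adjusted p = 0.00013). Other chains of laminin receptors, Itga3 (log2 difference 0.13, SE 0.42, limma adjusted p = 0.8), Itga6 (log2 difference 1.35, SE 0.51, limma adjusted p = 0.052) and Itgb4 (log2 difference 1.09, SE 0.52, limma adjusted p = 0.1), did not pass. Itgb1, the beta chain that Itga7, Itga10 and Itga11 use, was at 1047 and 1072 CPM in Tw2pos against 781 CPM in Pax7pos and did not pass (log2 difference 0.44, SE 0.41, limma adjusted p = 0.38). Laminin chains also divided: Lama4 was at 394 and 409 CPM in Tw2pos against 12.3 CPM in Pax7pos (log2 difference 4.92, SE 0.42, limma adjusted p = 0.00011), Lama3 was lower in Tw2pos (−1.76), and Lama2, the chain of muscle basement membrane, did not pass (log2 difference 0.67, SE 0.39, limma adjusted p = 0.17). Among cadherins, Cdh15 was at 10.8 and 7.99 CPM in Tw2pos against 539.5 CPM in Pax7pos (log2 difference −5.71, SE 0.52, limma adjusted p = 0.00014) and Cdh11 was the mirror, at 159.8 and 173 CPM in Tw2pos against 2.72 CPM in Pax7pos (log2 difference 5.49, SE 0.40, limma adjusted p = 5.3e-05). Ncam1 was higher in Pax7pos and Cdh2, N-cadherin, in Tw2pos, with log2 differences of −2.34 and 2.61. Dag1, dystroglycan, was lower in Tw2pos, at 359 and 385 CPM in Tw2pos against 1060 CPM in Pax7pos (log2 difference −1.51, SE 0.46, limma adjusted p = 0.024), while utrophin (Utrn) and dystrophin (Dmd) did not pass. The Dag1 call was lost under quantile normalization.

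Guidance cues of the Slit and class 3 semaphorin families were higher in Tw2pos, and receptors of guidance cues were found on both sides. Slit3 was at 564 and 659.8 CPM in Tw2pos against 2.92 CPM in Pax7pos (log2 difference 7.28, SE 0.36, limma adjusted p = 2.7e-05) and Robo1, a receptor of Slit proteins, was lower in Tw2pos. The class 3 semaphorin Sema3c was at 333 and 340.3 CPM in Tw2pos against 1.78 CPM in Pax7pos (log2 difference 6.93, SE 0.36, limma adjusted p = 2.7e-05), with Sema3d close behind (5.74). Plxna2, a semaphorin receptor, was at 41.8 and 32.9 CPM in Tw2pos against 242 CPM in Pax7pos (log2 difference −2.68, SE 0.42, limma adjusted p = 0.0016), and Plxnb1 was lower in Tw2pos as well. The receptors Plxna4, Nrp2, Unc5b and Ephb2 were higher in Tw2pos. The co-receptor Nrp1 was also higher in Tw2pos, at 382 and 367 CPM in Tw2pos against 63.3 CPM in Pax7pos (log2 difference 2.54, SE 0.49, limma adjusted p = 0.0039). Of 29 measured genes 15 (51.7%) were higher in Tw2pos and 7 (24.1%) lower, against 33.7% and 25.1% of all genes tested. Under quantile normalization 13 in all passed. Plxnb1 and Sema6a were among the calls lost there, and both were also lost without Tw2pos replicate 2.

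Among 28 measured genes of the TGF-beta and BMP pathways 13 (46.4%) were higher in Tw2pos and 2 (7.14%) lower. Over all genes tested the shares were 33.7% and 25.1%. Gdf10 was at 561 and 507 CPM in Tw2pos against 0.940 CPM in Pax7pos from 9 reads (log2 difference 8.10, SE 0.47, limma adjusted p = 2.8e-05), and Bmp5 was at 167 and 169 CPM in Tw2pos against 0.522 CPM in Pax7pos from 5 reads (log2 difference 6.80, SE 0.46, limma adjusted p = 4.3e-05). The BMP antagonist Chrdl1 was at 334 and 312 CPM in Tw2pos against 4.70 CPM in Pax7pos and passed as higher in Tw2pos. Receptors that did not pass were Bmpr1a (log2 difference 0.58, SE 0.36, limma adjusted p = 0.2), Bmpr2 (log2 difference −0.12, SE 0.36, limma adjusted p = 0.79) and Acvr1 (log2 difference −0.20, SE 0.37, limma adjusted p = 0.66). Bmp4 did not pass either, at 71.8 and 73.7 CPM in Tw2pos against 99.97 CPM in Pax7pos. Smad3, a transducer, was lower in Tw2pos (−1.08), as was Inhbb, an activin subunit (−1.40). Both calls were lost when either Tw2pos replicate was left out, and 10 of the 28 passed without replicate 1 and 10 without replicate 2.

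The Wnt group had 16 of 27 measured genes (59.3%) higher in Tw2pos and 3 (11.1%) lower, against 33.7% and 25.1% of all genes tested. Most of its secreted inhibitors were higher, and Sfrp5 did not pass (log2 difference −0.11, SE 0.55, limma adjusted p = 0.87). Wif1 was at 238 and 167 CPM in Tw2pos against 1.36 CPM in Pax7pos (log2 difference 6.41, SE 0.48, limma adjusted p = 5.9e-05), and Dkk2, Dkk3, Sfrp2 and Sfrp4 had log2 differences from 5.43 to 6.22. The Wnt co-receptor Lrp6 did not pass (log2 difference 0.71, SE 0.34, limma adjusted p = 0.11), and Ror1, a Wnt receptor kinase, was lower in Tw2pos at 27.5 and 29.8 CPM in Tw2pos against 114 CPM in Pax7pos (log2 difference −1.96, SE 0.37, limma adjusted p = 0.0034). Of 10 measured hedgehog genes 3 were higher in Tw2pos, a share slightly below the 33.7% of all genes tested. None was lower, against 25.1% of all genes tested, and 7 did not pass. Gli1, a target of the pathway, was at 65.5 and 66.2 CPM in Tw2pos against 66.6 CPM in Pax7pos, while Hhip, which binds the ligand, was higher in Tw2pos (2.31).

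Of 22 measured genes for vascular and platelet-derived growth factors, 16 (72.7%) were higher in Tw2pos and 2 (9.09%) were lower. Over all genes tested the shares were 33.7% and 25.1%. Under quantile normalization 10 of the 22 passed. Vegfa, the main vascular growth factor, was at 113 and 139 CPM in Tw2pos against 558 CPM in Pax7pos (log2 difference −2.14, SE 0.31, limma adjusted p = 0.0012). Angptl4 was the other gene lower in Tw2pos (−1.09). The angiopoietin-like genes Angptl1 and Angptl7 were higher, with Angptl1 at 275 and 274 CPM in Tw2pos against 9.40 CPM in Pax7pos (log2 difference 4.73, SE 0.35, limma adjusted p = 5.7e-05) and Angptl7 at 951 and 713 CPM in Tw2pos against 5.54 CPM in Pax7pos. Pdgfra, the receptor that marks fibro-adipogenic progenitors (chromosome 5, 75152292 to 75198215, plus strand), was at 898 and 892 CPM in Tw2pos against 4.28 CPM in Pax7pos (log2 difference 7.41, SE 0.36, limma adjusted p = 2.7e-05), and Pdgfrb was at 487 and 472 CPM in Tw2pos against 18.5 CPM in Pax7pos (log2 difference 4.62, SE 0.53, limma adjusted p = 0.00039). The ligands Pdgfa and Pdgfb did not pass.

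Transcription factors with large differences were found on both sides. Ebf2, a regulator of mesenchymal and fat cells (chromosome 14, 67233292 to 67430918, plus strand), had 151 and 148 CPM in Tw2pos against 0.209 CPM in Pax7pos from 2 reads (log2 difference 6.96, SE 0.40, limma adjusted p = 2.8e-05). The homeobox factors Meox2 and Meox1 were at 209 and 179 CPM in Tw2pos against 1.98 CPM in Pax7pos (log2 difference 6.03, SE 0.57, limma adjusted p = 0.00017) and at 109 and 115 CPM in Tw2pos against 1.78 CPM in Pax7pos (log2 difference 5.35, SE 0.48, limma adjusted p = 0.00013). Both Meox genes are known from the somite, from which trunk and limb muscle also derives. Eya2, a transcriptional co-activator, was also on the Tw2pos side, at 67.5 and 72.3 CPM in Tw2pos against 2.72 CPM in Pax7pos (log2 difference 4.25, SE 0.35, limma adjusted p = 8.3e-05). On the Pax7pos side stood Msc, at 10.3 and 13.2 CPM in Tw2pos against 471 CPM in Pax7pos (log2 difference −5.22, SE 0.37, limma adjusted p = 5.0e-05), and Myod1 (chromosome 7, 46376474 to 46379099, plus strand), at 8.75 and 19.8 CPM in Tw2pos against 993 CPM in Pax7pos (log2 difference −6.13, SE 0.47, limma adjusted p = 6.7e-05). Runx1 (chromosome 16, 92601466 to 92826149, minus strand) was at 122 and 143 CPM in Tw2pos against 1309 CPM in Pax7pos (log2 difference −3.30, SE 0.33, limma adjusted p = 0.00023), although its list holds mesenchymal regulators. Tshz3 and Snai2 of the same list were lower in Tw2pos too (−2.05 and −1.89). Of 29 measured mesenchymal factors 15 (51.7%) were higher in Tw2pos, 5 (17.2%) were lower and 9 did not pass. Over all genes tested 33.7% were higher and 25.1% lower. The limb and axial factors Tbx15 and Tbx18 were higher in Tw2pos (2.17 and 3.27), and Tbx4 and Hoxc10, markers of hind limb position, did not pass (log2 differences of −0.01 and 0.57). The call of Snai2 was lost without Tw2pos replicate 1.

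Of 13 measured genes for retinoids and steroid receptors 7 (53.8%) were higher in Tw2pos and 2 (15.4%) lower. Over all genes tested the shares were 33.7% and 25.1%. Aldh1a2, which makes retinoic acid, was at 51.8 and 47.4 CPM in Tw2pos against 1.04 CPM in Pax7pos (log2 difference 4.63, SE 0.35, limma adjusted p = 6.4e-05), and Cyp26b1, which degrades it, was at 65.6 and 133 CPM in Tw2pos against 3.97 CPM in Pax7pos (log2 difference 4.25, SE 0.61, limma adjusted p = 0.0011). Rbp4, a carrier of retinol, had a log2 difference of 4.03. The receptors Rarb and Rarg did not pass. Esr1, the oestrogen receptor, was lower in Tw2pos, at 28.7 and 31.3 CPM in Tw2pos against 106 CPM in Pax7pos (log2 difference −1.79, SE 0.35, limma adjusted p = 0.0042), and Nr3c2, the mineralocorticoid receptor, was lower too (−1.94). Both calls were lost without Tw2pos replicate 1.

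Innate immune genes of the complement group were higher in Tw2pos in 16 of 19 measured genes. C7, a component of the membrane attack complex (chromosome 15, 4988762 to 5063740, minus strand), was at 1159 and 1720 CPM in Tw2pos against 1.25 CPM in Pax7pos from 12 reads (log2 difference 9.29, SE 0.39, limma adjusted p = 2.7e-05). C3, the central component, was at 2346 and 2733 CPM in Tw2pos against 21.0 CPM in Pax7pos (log2 difference 6.85, SE 0.38, limma adjusted p = 2.8e-05), and Serping1, the inhibitor of C1, was at 2753 and 3546 CPM in Tw2pos against 607 CPM in Pax7pos (log2 difference 2.36, SE 0.45, limma adjusted p = 0.0037). C1qa, C1qb and C1qc, also among the 16, are macrophage markers, and 11 of the 22 macrophage markers were higher in Tw2pos. Their part in the count was not tested. The interferon group was mixed, with 11 of 30 higher, 3 lower and 16 not passing. The share higher was 36.7%, against 33.7% of all genes tested, and the share lower was 10.0%, against 25.1%. Ifi205 (chromosome 1, 174011998 to 174031810, minus strand) was at 227 and 333 CPM in Tw2pos against 1.98 CPM in Pax7pos (log2 difference 6.53, SE 0.34, limma adjusted p = 2.7e-05), and Ifi203 and Ifi204 of the same family were at 149.7 and 164 CPM in Tw2pos against 3.13 CPM in Pax7pos and at 113 and 140.4 CPM in Tw2pos against 2.61 CPM in Pax7pos. These genes are closely related neighbours, so reads may be split among them. The classical interferon targets Isg15 and Ifit1 did not pass, with log2 differences of −0.08 and −0.38. Nlrc5, the activator of class I genes, was lower in Tw2pos, at 8.44 and 6.14 CPM in Tw2pos against 55.5 CPM in Pax7pos (log2 difference −2.78, SE 0.37, limma adjusted p = 0.00082), and its target H2-K1 did not pass (log2 difference −1.01, SE 0.42, limma adjusted p = 0.071). Unlabelled libraries held 83.2, 120 and 77.1 CPM of Nlrc5.

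Of 24 measured early response genes 6 were higher in Tw2pos, 8 lower and 10 did not pass. The share higher was 25.0%, against 33.7% of all genes tested, and the share lower was 33.3%, against 25.1%. Fosl1 was at 31.3 and 64.6 CPM in Tw2pos against 696 CPM in Pax7pos (log2 difference −3.92, SE 0.44, limma adjusted p = 0.00036) and Maff at 299 and 406 CPM in Tw2pos against 1210 CPM in Pax7pos (log2 difference −1.79, SE 0.37, limma adjusted p = 0.0048). Both were higher in Pax7pos. Ctgf and Nr4a2 were higher in Tw2pos, at 1915 and 2099 CPM in Tw2pos against 333 CPM in Pax7pos (log2 difference 2.58, SE 0.44, limma adjusted p = 0.0023) and at 235 and 267 CPM in Tw2pos against 49.1 CPM in Pax7pos (log2 difference 2.33, SE 0.33, limma adjusted p = 0.0011), as was Socs3, an inhibitor of cytokine signals, at 2691 and 2438 CPM in Tw2pos against 644 CPM in Pax7pos (log2 difference 1.99, SE 0.45, limma adjusted p = 0.0073). Egr1 and Jund did not pass. Among Hippo pathway genes, Ankrd1, a target of Yap known from muscle, was at 11.9 and 11.7 CPM in Tw2pos against 127 CPM in Pax7pos (log2 difference −3.32, SE 0.46, limma adjusted p = 0.00097), and Tead3, a partner of Yap, was at 56.7 and 61.6 CPM in Tw2pos against 227 CPM in Pax7pos (log2 difference −1.92, SE 0.35, limma adjusted p = 0.0031). Yap1 did not pass (log2 difference −0.52, SE 0.35, limma adjusted p = 0.23). Ctgf, which is also known as a Yap target, differed from Ankrd1 in direction.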

How the data were processed

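RNA sequencing of 6 libraries of sorted mouse muscle cells was used, with groups taken from the sample titles. The authors deposited a normalized signal table for the 4 Twist2-line libraries (gene counts divided by a size factor), and a CPM table of 4939 genes with the Pax7-line libraries and the mean of each Twist2 pair, per the file headers. The submitters' processing notes name TopHat2 2.0.0, DESeq2 1.6.3, GRCm38 and mm10. Neither the read counter nor the annotation is given in the sources used here. Both tables were made of whole reads (100% of values within a tolerance of 0.01 read), which gave CPM for single libraries and read numbers. The deposited log2 fold changes were not used.

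The test was limma 3.58.1 in R 4.3.3 with a variance trend on log2(CPM + 1), 1 mean per group over 6 libraries, with 2 residual degrees of freedom, and the threshold was an adjusted p of 0.05. Pax7pos and Pax7neg are single libraries and add nothing to the spread. When a Tw2pos or Tw2neg replicate was left out, the lone sample was assumed to vary like the other groups. Alternatives used edgeR 4.0.16 and DESeq2 1.42.0 on recovered reads. On simulated data of 4939 genes with 200 changed, the test recovered 11.9% of 2-fold, 76.1% of 4-fold and 98.5% of 8-fold changes, and 3.12% of its calls were false. The simulation gave Pax7pos the same spread as the replicated groups, so it cannot test that assumption. The changed genes left out those of low level and were far fewer than the 2905 calls. These rates therefore need not hold for the data. Floors (3 reads) cover counting error only, and reads carried no molecular identifiers in the sources used here.

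Genes named are Pax7 and Twist1, the 15 largest differences in each direction with at least 50 CPM, and, from each of 54 lists, up to 4 members with the largest differences in each direction, the 3 with the highest CPM and members that did not pass. Rn45s, Thy1, Igf1, Spry2, Spred1, Ccl11, Ccl7, Ccl8, Robo1, Fgfr2, Plxna4, Nrp2, Unc5b, C1qa and C1qb fall outside that rule and were chosen after their values were seen. The same holds for Gclc, Gss, Gsr, Gstm2, Krt1, Krt15 and Tnn. Some genes that the rule names are not reported here. The members and lists were chosen with earlier results of these data known. Gene positions are from GENCODE M21 (GRCm38) and promoter windows from RefSeq (GRCm38.p6). Python 3.11.15, pandas 2.3.3 and matplotlib 3.10.9 were used.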

Additional observations from a re-analysis of the deposited data

How the results depend on the processing

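The comparison called 2905 genes (1665 higher and 1240 lower in Tw2pos). There were 1508 calls among the 2210 genes averaging 50 CPM or more over the groups (724 higher, 784 lower) and 1860 calls under quantile normalization (862 higher, 998 lower). Leaving out 1 library at a time gave 1658 to 3817 calls, with 1074 to 2205 higher and 584 to 1616 lower. The lowest values came without Tw2pos replicate 1 and the highest without a Tw2neg replicate, where the remaining spread came from the closer Tw2pos pair. Calls were higher in Tw2pos in 57.3% of the main calls, 48.1% with TMM factors and 46.3% under quantile normalization. The gene Lfng and the gene L1cam turned direction under quantile normalization, to −0.115 and −0.0851 on the log2 scale, and neither passed there (limma adjusted p = 0.86 and 0.89). The cause was not tested. Of 298 named genes that passed, 211 kept their call and direction in every one of the 13 alternatives. Over all alternatives, calls of named genes were kept 3615 times and lost 179 times with the direction kept and 2 times with it turned, and genes that had not passed did so 533 times. No paired analysis was possible because Pax7pos is a single library without a replicate number, so the groups share fewer than 2 numbers. With 2 residual degrees of freedom and no Pax7pos replicate, the precision is limited. In the simulation, which gave Pax7pos the spread of the replicated groups, 11.9% of 2-fold changes were recovered.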

Other observations

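Of the 4939 genes, 25 had no read in Pax7pos, and 6 of them passed as higher in Tw2pos. Krt1 and Krt15 encode keratins of epithelia, and Tnn encodes tenascin N, a matrix glycoprotein. Krt1 had 263 and 125 reads in the Tw2pos libraries, which makes it at least 62.6-fold higher in Tw2pos, with 3 reads in the Pax7pos library as the floor. Replicate 1 alone gave at least 86.4-fold and replicate 2 alone at least 38.9-fold for Krt1, a check that was added after its values were seen. On the same floor Krt15, with 154 and 178 reads, was at least 53.0-fold higher, and Tnn, with 81 and 131 reads, at least 33.7-fold higher. The table asks for 10 CPM in a minimum of 3 libraries, and these genes had no read in Pax7pos. Each must therefore also reach 10 CPM in some unlabelled library, so none was particular to Tw2pos.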
